A study of Caenorhabditis elegans with 2 samples.

Results

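The regions described here are the strong LIN-39 regions that lie inside autosomal introns and away from promoters. They were chosen by the signal that the authors deposited for a candidate list called on both replicates together: ranks 1 to 2000 of its 30000 regions, not on X, with a summit inside a protein-coding gene, in no exon of such a gene, and outside the window that runs from 1000 bp before the 5′ end of any coding transcript to 200 bp past it. There were 373 such regions among the 2000, and 5776 autosomal intronic candidates over all ranks. The other autosomal regions of ranks 1 to 2000 included 509 promoter-proximal, 371 distal intergenic and 284 exonic ones. The study was a chromatin immunoprecipitation and sequencing experiment on whole L2 larvae of Caenorhabditis elegans. Its 2 libraries were biological replicates of 1 group: strain OP18, with the unc-119(ed3) III allele and the transgene wgIs18, in mixed sex worms (pooled male and female). The labels name lin-39 as the antibody and eGFP-lin-39 as the target, and do not say what drives the transgene. No second condition and no control library were analysed here, so the comparisons are among regions of the same lists. Read depth is unknown. A signal from whole larvae does not show in which cells a region was bound.

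LIN-39 is the Hox protein of the mid-body. Its known places of action include the vulval precursor cells, ventral cord neurons and the migrating Q neuroblasts, and Hox proteins often bind DNA together with TALE cofactors of the Pbx and Meis families. Introns can hold enhancers, and in worms the longer introns near the 5′ end of a gene are known as places for them. A GA repeat is the binding word of the GAGA factor in flies and is also common in worm regulatory DNA.

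The sequences are windows of 201 bp centred on the summit, from 3 of the strongest regions, from leading regions with the GA repeat GAGAGA, which the other strand spells as TCTCTC, or with TGATNNAT, the word of a Hox protein with Pbx, and from mig-10, whose window holds both. They are shown because the results on sequence turn on these words. They come from the RefSeq copy of the WBcel235 assembly, which has the coordinates of ce11, and are given 5′ to 3′ on the forward strand with each copy of the 2 words, on either strand, in capitals.
K01F9.2, chrIII:8874276-8874476: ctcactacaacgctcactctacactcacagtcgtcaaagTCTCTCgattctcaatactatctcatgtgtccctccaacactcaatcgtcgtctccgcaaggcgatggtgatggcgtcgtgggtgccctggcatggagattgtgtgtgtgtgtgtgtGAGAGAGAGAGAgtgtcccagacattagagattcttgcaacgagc
egl-27, chrII:6838294-6838494: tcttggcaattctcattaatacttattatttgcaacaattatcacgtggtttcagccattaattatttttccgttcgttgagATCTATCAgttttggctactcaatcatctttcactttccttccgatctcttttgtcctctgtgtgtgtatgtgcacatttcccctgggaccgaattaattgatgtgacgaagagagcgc
Y111B2A.12, chrIII:12612582-12612782: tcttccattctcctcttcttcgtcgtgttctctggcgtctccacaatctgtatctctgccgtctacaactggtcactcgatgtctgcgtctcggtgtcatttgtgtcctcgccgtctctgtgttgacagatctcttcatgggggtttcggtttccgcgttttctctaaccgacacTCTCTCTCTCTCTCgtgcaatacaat
zfp-1, chrIII:8800018-8800218: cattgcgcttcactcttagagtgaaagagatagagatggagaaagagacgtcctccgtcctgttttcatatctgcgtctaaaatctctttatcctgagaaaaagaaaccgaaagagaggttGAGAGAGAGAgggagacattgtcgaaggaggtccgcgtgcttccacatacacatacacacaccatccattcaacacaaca
T13F2.4, chrIV:9790823-9791023: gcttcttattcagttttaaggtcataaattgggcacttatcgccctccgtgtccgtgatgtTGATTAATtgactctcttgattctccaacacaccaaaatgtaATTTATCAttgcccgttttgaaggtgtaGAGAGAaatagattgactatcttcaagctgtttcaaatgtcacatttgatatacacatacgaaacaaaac
zag-1, chrIV:3858097-3858297: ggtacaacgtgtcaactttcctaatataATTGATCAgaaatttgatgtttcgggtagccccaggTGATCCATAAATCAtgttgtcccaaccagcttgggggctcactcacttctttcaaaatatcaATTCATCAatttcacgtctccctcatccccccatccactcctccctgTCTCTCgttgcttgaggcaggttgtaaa
mig-10, chrIII:8288607-8288807: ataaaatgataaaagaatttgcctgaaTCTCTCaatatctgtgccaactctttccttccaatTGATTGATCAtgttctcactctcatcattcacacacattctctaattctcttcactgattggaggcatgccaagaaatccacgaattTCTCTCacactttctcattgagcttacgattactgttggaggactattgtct

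The windows of K01F9.2, Y111B2A.12 and zfp-1 hold runs of GA or TC longer than the 6-base word, and the zag-1 window, inside the gene of a zinc finger homeodomain protein, holds several copies of TGATNNAT and 1 of TCTCTC. The egl-27 window holds TGATNNAT and no GAGAGA.

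Across the 373 regions the deposited signal ran from 28.8 to 114.5, with a median of 32.4 and quartiles of 30.6 and 36.7. The sources used here do not say what the signal is a measure against, and it was therefore compared within a list. Because signal chose the regions, signal and rank are given as a description, with no test. The authors named the candidate list as peaks and background for input to IDR, which measures agreement between replicates. Their optimal list, named as thresholded by IDR, holds the 311 strongest regions and contained 41 of the 373. The other 332, all past pooled rank 311, are strong by rank alone. The deposited score, in the column that the format gives to −log10 of a q-value, was below 0 for 265 of the 373. The 3 regions just inside the limit lay in trpp-10, let-765 and srx-12, at ranks 1992, 1997 and 2000 with signals of 28.9, 28.9 and 28.8. Those just outside lay in afd-1, M02B1.3 and lim-7, at ranks 2007, 2011 and 2013, each with a signal of 28.8.

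The replicates ranked these regions differently. Each region was matched to the strongest overlapping region of a replicate's own list, where 355 were found in replicate 1, 350 in replicate 2 and 332 in both. The median rank was 1756 in replicate 1 (quartiles 701.5 and 5640) and 2257.5 in replicate 2 (quartiles 679.25 and 7157.75). Of the 373, 58 (15.5%) were within rank 2000 in both replicates, 134 (35.9%) in replicate 1 alone, 109 (29.2%) in replicate 2 alone and 72 (19.3%) in neither. The share within rank 2000 in both was 25.7% for promoter-proximal and 24.8% for distal intergenic regions of the same pooled ranks. These shares rest on signal and were not tested.

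**Figure D1:**
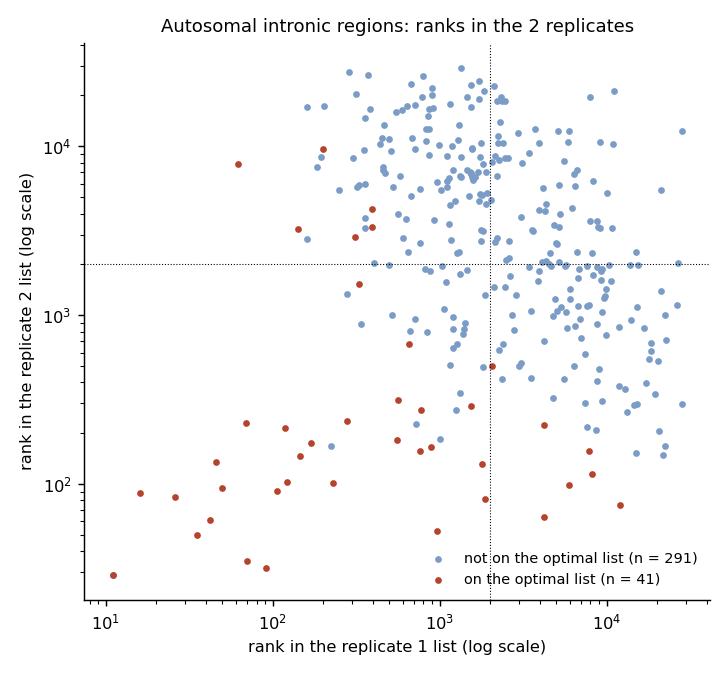
Rank in the replicate 1 list (x axis) against rank in the replicate 2 list (y axis), both on log scales, for the 332 intronic regions found in both lists, with those on the optimal list in red and dotted lines at rank 2000. The 41 optimal regions sit mostly within rank 2000 in both lists, while most others are within rank 2000 in 1 list and beyond it in the other.

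The strongest of the 373 regions lay in intron 4 of K01F9.2 (chrIII:8874221-8874530), a gene with a sequence name only. Its signal was 114.5 (rank 15) in the pooled list, 65.8 (rank 11) in replicate 1 and 44.9 (rank 29) in replicate 2. The same intron, of 4047 bp, held 3 further regions at pooled ranks 200, 503 and 953. The region at rank 503 overlapped the strongest one and matched the same replicate regions, so the pair is not independent. The next strongest with a sequence name only were in Y111B2A.12 (rank 36; 26 and 84 in replicates 1 and 2) and T13F2.4 (rank 133; 170 and 174). In all 3 genes the leading region ranked high in both replicates.

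Genes of cell migration and axon guidance hosted several of the strongest regions. Listed axon guidance genes offered a median of 5557 bp of intron sequence that meets the location rule, beside 645 bp over all genes. The region in intron 2 of egl-27 (chrII:6838239-6838548), which encodes an MTA-like chromatin protein that acts in neuroblast migration, had a signal of 93.9 (rank 31), and signals of 61.6 (rank 16) and 30.6 (rank 89) in replicates 1 and 2. A second region in egl-27 stood at rank 972 (replicate ranks 2629 and 1700). Intron 2 of unc-40, the DCC-type netrin receptor gene, held a region at chrI:5690106-5690415 with rank 48 and replicate ranks 70 and 35, and a weaker one stood at rank 1101. In cam-1, which encodes a Ror-type receptor tyrosine kinase that binds Wnt, intron 1 held a region of rank 60 (replicate ranks 50 and 95). A second region in the same intron, at rank 528, had rank 126 in replicate 1 and no match in replicate 2. The semaphorin gene smp-1 had a region of rank 64 (replicate ranks 46 and 135). The leading regions of these 4 genes were thus within the strongest 135 in each replicate.

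Other genes of the axon guidance and Wnt lists had regions that 1 replicate ranked high and the other low. The leading region of madd-2, which encodes a TRIM protein of axon branching, was at pooled rank 236, with rank 12003 in replicate 1 and rank 75 in replicate 2. That of mig-10, the lamellipodin-type adaptor gene of axon outgrowth, was at rank 257 with replicate ranks 5994 and 99. The long first intron of mig-10, of 11678 bp, held 2 more regions, at ranks 1397 and 1667. In lit-1, which encodes a Nemo-like kinase of the Wnt pathway, the leading region had rank 391 and replicate ranks 21929 and 149. These 3 stood high in replicate 2 and low in replicate 1.

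The other hosts of the 15 strongest regions had varied roles, transcription and chromatin among them. The first intron of mef-2, a MADS-box transcription factor gene, held a region with rank 38 and replicate ranks 35 and 50. In zfp-1, which encodes an AF10-type PHD finger protein, 2 regions stood at ranks 51 (replicates 91 and 32) and 159 (replicates 69 and 230), and each had GAGAGA at the summit. The ARID subunit gene of the SWI/SNF complex, let-526, held regions at ranks 80 (replicates 106 and 91) and 163, the latter with rank 231 in replicate 1 and a higher rank in replicate 2. These 5 regions ranked within the strongest 231 of each replicate. The Mediator subunit gene mdt-26 held a region at rank 124, with ranks 960 and 53 in replicates 1 and 2, and a GC content of 57.7% at its summit. The region at rank 53 lay in pxn-1, a peroxidasin gene, with replicate ranks 42 and 61 and its summit within the snoRNA gene ZK994.7. These 2 regions lay in short introns, of 386 and 341 bp. The region at rank 76 (signal 32.4 in replicate 1 and 29.1 in replicate 2) lay within both eat-16, which encodes an RGS protein of Gq signalling, and ocrl-1, an inositol phosphatase gene. The region at rank 93, with rank 146 in each replicate, lay within both soem-1 and ndx-8, a nudix hydrolase gene, and had GAGAGA and TGATNNAT at its summit. In snt-1, the synaptotagmin gene, a region in intron 2 had rank 127 with replicate ranks 119 and 216.

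Among Hox genes and their cofactors, lin-39's neighbour in the Hox cluster, mab-5, held regions at ranks 1790 (replicate ranks 5601 and 1963) and 1918 (637 and 17377), both in a 3564-bp intron 3. The Meis-type cofactor gene unc-62 held a region at rank 1077, with no match in replicate 1 and rank 172 in replicate 2. None of the 3 was within rank 2000 in both replicates. Of the vulval genes, sur-2, a Mediator subunit gene, held a region at rank 1089 and lin-12, a Notch receptor gene, one at rank 1367 that was found in replicate 1 (rank 305) and not in replicate 2. The GATA factor gene egl-18 followed at rank 1369 and sos-1, a Ras exchange factor gene, at rank 1958. These weaker members lay beyond rank 1000 of the pooled list, and none was on the optimal list.

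The 373 regions lay in 329 genes, which is 2.22% of the 14848 autosomal coding genes with intron sequence that meets the location rule. Of these hosts 286 held 1 region, 34 held 2 and 9 held 3 or 4, and 102 had a sequence name only. Besides K01F9.2 and mig-10, the hosts with 3 or 4 were lsy-22, a Groucho-related co-repressor gene with 4 regions in its 11392-bp first intron, spe-15 (an unconventional myosin), ncl-1 (a TRIM-NHL protein that limits nucleolar size), unc-83 (a nuclear envelope protein of nuclear migration), kcc-2 (a potassium and chloride cotransporter), sue-1 and DH11.5. The share of genes that hosted a region went up with the intron sequence they offered, from 0.301% of 6310 genes with up to 500 bp, through 8.32% of 889 genes with over 4000 and up to 8000 bp, to 30% of 100 genes with over 16000 bp. The median was 4094 bp in the hosts and 645 bp in all such genes.

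The 17 gene lists covered development, signalling, neurons, chromatin, muscle, cell adhesion, stress response and RNA binding. Of their genes 340 were eligible and 41 (12.1%) hosted a region, beside 2.22% of all genes. The lists were chosen with earlier results of these data known, and the lists' median eligible sequence ran from 976 to 7444 bp, above the 645 bp of all genes, so the counts are a description. Axon guidance had 8 hosts of 29 genes (median eligible sequence 5557 bp), Gq and Go signalling 5 of 20 (4637 bp), and the Wnt pathway with Q neuroblast migration 5 of 29 (1877 bp). By rank, axon guidance was led by unc-40, smp-1, madd-2 and mig-10, and the Wnt list by egl-27, unc-40, cam-1 and lit-1. Gq and Go signalling was led by eat-16, then by pde-4 (a cAMP phosphodiesterase, rank 519), unc-43 (CaMKII, rank 766) and egl-10 (an RGS protein, rank 929). Synaptic vesicle release had 4 of 21, with snt-1, then nrx-1 (neurexin, rank 638), unc-13 (vesicle priming, rank 1380) and unc-16 (a JIP3-type scaffold, rank 1980). Hox genes and cofactors had 2 of 8, vulval development 4 of 30, and the NuRD-type and synMuv chromatin proteins 3 of 22, of which dcp-66, a NuRD subunit gene at rank 1129, followed egl-27 and zfp-1. Epidermis and seam had 3 of 19, led by rnt-1 (a Runx factor, rank 711) and nhr-23 (a nuclear receptor of molting, rank 1251), and cell adhesion 3 of 26, namely hmr-1 (cadherin, rank 459), cle-1 (collagen XVIII, rank 483) and fmi-1 (Flamingo, rank 1465). Fewer members of the remaining lists were hosts: ventral cord motor neurons 2 of 29 (unc-49, a GABA receptor, and unc-25, the enzyme of GABA synthesis, ranks 1430 and 1718), ion channels 2 of 19 (unc-103, an ERG-type potassium channel, and unc-79, of the NALCN-type channel complex, ranks 437 and 756), body wall muscle 2 of 27 (unc-89, obscurin, and lev-11, tropomyosin, ranks 1625 and 1654), SWI/SNF 1 of 11 and RNA-binding proteins 1 of 25 (msi-1, Musashi, rank 290). No host was found among 20 TGF-beta, 9 heterochronic and 15 insulin and stress genes. Their median eligible sequences were 2036, 2354 and 2648 bp. Of all genes with over 2000 and up to 4000 bp, 3.76% were hosts, so with so few genes these zeros do not set the lists apart. Of gene families taken by name, the nhr nuclear receptors had 4 hosts of 242 (1.65%), and the ceh homeobox genes 0 of 45, with median eligible sequences of 692 and 897 bp. The unc genes had 14 of 77 (18.2%, 2880 bp), the col collagen genes 0 of 95 (107 bp) and the ribosomal protein genes 0 of 32 (55 bp). By class of intron sequence, the listed genes had 0 hosts of 41 up to 500 bp and 0 of 35 up to 1000 bp, where 0.301% and 1.11% of all genes were hosts. The listed share was 4.69% beside 1.93% of all genes up to 2000 bp, and 4.05% beside 3.76% up to 4000 bp. It was 20.6% beside 8.32% up to 8000 bp, 28.9% beside 16.24% up to 16000 bp, and 50% beside 30% above that.

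**Figure D2:**
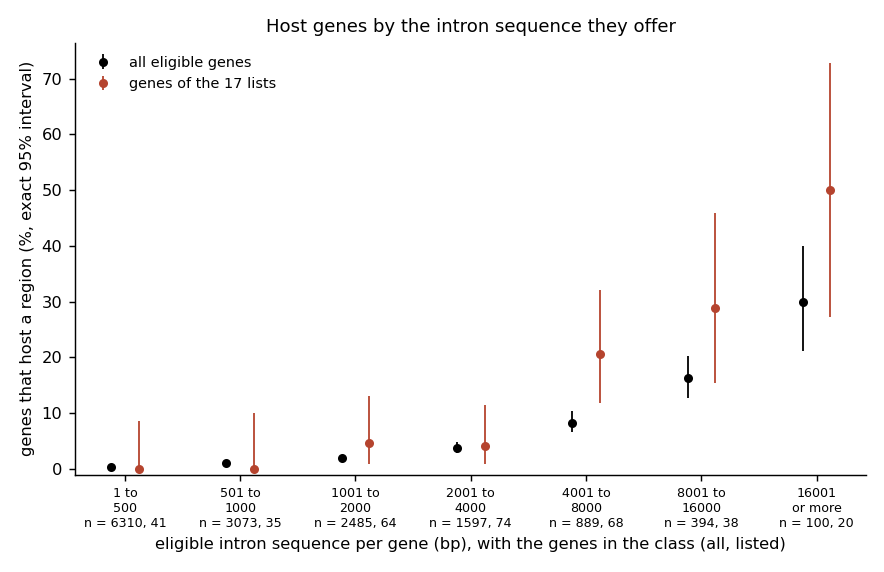
Share of genes that host a region (y axis, %, exact 95% intervals) by class of eligible intron sequence per gene (x axis, bp), for all eligible genes (black) and for the genes of the 17 lists (red). The share of all genes goes up with each class, to 30% above 16000 bp. That of listed genes is 0 up to 1000 bp, 4.69% and 4.05% in the next 2 classes, and 50% above 16000 bp.

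Hosts had a region at their own promoter more often than all eligible genes did, though most hosts had none. Of the 329 hosts, 36 (10.9%) had a summit of ranks 1 to 2000 at a 5′ end of their own, beside 507 (3.41%) of all 14848 eligible genes. Among genes with at least the hosts' median of 4094 bp, the share was 16.97% of 165 hosts and 5.16% of 1182 others. A summit at any 5′ end of the gene counted, and the genes were not matched for their number of 5′ ends. Both measures use the same signal, so no test was made.

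The regions were spread over the 5 autosomes, with 91 on I, 63 on II, 74 on III, 66 on IV and 79 on V. Per Mb of eligible intron this was 18.2, 16.7, 16.6, 14.4 and 16.5, against 16.5 over all 22.6 Mb. The density was highest on I and lowest on IV, and no test was made. GAGAGA was at 20.9%, 30.2%, 32.4%, 19.7% and 24.1% of the summits on I to V.

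The strong regions lay in long introns more often than weaker intronic candidates did. Of the 373, 216 (57.9%, exact Clopper-Pearson 95% interval 52.7 to 62.97) lay in an intron of 1000 bp or more, against 2029 of 4819 (42.1%) for autosomal intronic candidates beyond rank 5000, a difference of 15.8 points (Fisher's exact test, two-sided, adjusted p = 7.63e-09 over 2 shares). The difference was 26.8 points at ranks 1 to 1000 and 5.36 points where a long intron was one of 500 bp or more (Fisher's exact test, adjusted p = 0.0381). Introns of 1000 bp or more are 7.99% of all autosomal coding introns and hold 51.9% of the intron sequence. The median intron was 1483 bp for the strong regions and 777 bp for the weaker ones, and the median distance from the summit to a splice site was 293.5 bp and 152 bp. Intervals and tests here count regions as units, and regions in the same intron or gene share their surroundings: the 370 regions with an intron of a coding transcript at the summit lay in 347 introns, of which 17 held more than 1 region.

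A region counted as in a first intron where any intron over its summit was the first of a coding transcript of any host. That intron need not be the one that gave the region its length and number. For the region at rank 76, in eat-16, the number was 9. A first intron can also lie far along the gene. The region in C01G5.25, for one, lay in such an intron 84.8% of the way along its host. First introns held 137 of the 373 (36.7%, 31.8 to 41.8), against 1503 of 4819 weaker candidates (31.2%), a difference of 5.54 points (Fisher's exact test, adjusted p = 0.0281). The difference lost its call without replicate 1 (4.66 points, exact test, adjusted p = 0.0667) and among introns of 1000 bp or more alone (4.13 points, adjusted p = 0.504). The median summit lay 3128 bp from the 5′ end of the host and 40.3% of the way along it, beside 2429 bp and 46.05% for the weaker candidates. The nearest coding 5′ end of any transcript was at a median of 1673 bp.

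Of the 12 words searched, GAGAGA was the one whose excess at the summits passed the test against both flanks. It was within 100 bp of 94 of the 373 summits (25.2%, 20.9 to 29.9), against 13.7% and 13.9% of windows of the same width centred 1000 bp to each side (exact McNemar test, adjusted p = 0.000923 for each flank over 12 words and 2 flanks). With regions from the replicate 1 list alone, that is without replicate 2, the excess over the flanks was 10.2 points and lost its call (exact test, adjusted p = 0.0603), and without replicate 1 it was 8.70 points (adjusted p = 0.0255). GAGAGA at summits had been seen before in stronger regions of these lists, so its presence here is not independent support. With the 311 strongest ranks left out the excess was 10.2 points (exact test, adjusted p = 0.0126). The regions left come from the same libraries, so they are not independent support either. All 12 words were searched on both strands. GAGAGA was at 13.1% of all 30000 candidate summits. Flank windows touched a coding exon in 141 (37.8%) and 143 (38.3%) cases, and with flanks free of exons the excess was 13.2 points (exact test, adjusted p = 0.0293). That setting left out, for each flank, the regions whose flank touched an exon, so it does not cover the same regions as the main test. Exon sequence in the summit windows was not removed in that setting.

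**Figure D3:**
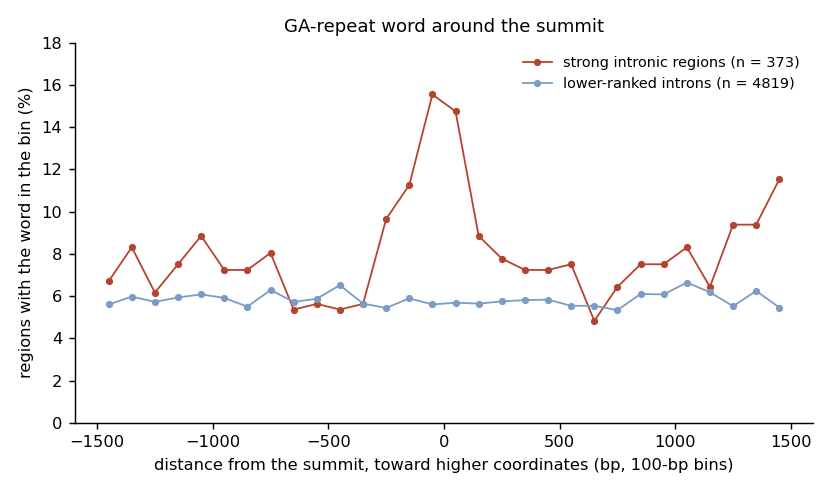
Share of regions with GAGAGA (y axis, %) in bins of 100 bp by distance from the summit (x axis, bp), for the 373 strong intronic regions (red) and 4819 lower-ranked intronic candidates (blue). The 2 bins beside the summit hold 15.5% and 14.7% in the strong regions, whose other bins hold 4.83% to 11.5%, and the lower-ranked line stays between 5.33% and 6.64%.

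Against other regions, GAGAGA was more frequent in the strong introns than in weak ones, and its differences from promoter-proximal and distal intergenic regions did not pass the test. It was at 10.4% of the weaker intronic summits (Fisher's exact test, adjusted p = 4.37e-13 over 12 words and 3 classes), and at 17.8% of the 584 intronic candidates past rank 2000 and up to rank 5000, a difference of 7.39 points that was not called (adjusted p = 0.124). Promoter-proximal regions of ranks 1 to 2000 had it at 31.8% of summits, with the introns at -6.63 points relative to them (Fisher's exact test, adjusted p = 0.213). Distal intergenic ones had it at 29.6%, with the introns at -4.45 points (Fisher's exact test, adjusted p = 0.485). A difference that misses the threshold does not show that these shares are alike. Of the 97 intronic regions on X with the same ranks, 28.9% had the word (20.1 to 39.0), and of the 284 exonic autosomal ones 14.8% (10.9 to 19.5). The differences from these 2 classes were not tested.

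Within the 373, GAGAGA was at 32.3%, 26.9%, 23.7% and 18.1% of the summits in 4 groups of 93 or 94 regions, taken from the strongest to the weakest by rank. On the optimal list it was at 17 of 41 summits (41.5%, 26.3 to 57.9). In introns of 1000 bp or more it was at 72 of 216 (33.3%) and in shorter ones at 22 of 154 (14.3%; Fisher's exact test, adjusted p = 6.57e-05 over 2 splits, made after the values were seen). The longer introns also had a higher median GC content at the summit, 40.3% against 37.1%, and a stronger median rank, 875.5 against 1211.5. Windows of 201 bp in shorter introns can hold exon sequence, as the shortest intron was 43 bp. The part of GC content, rank and exon sequence in the difference was not tested. Weaker candidates showed 14.7% in long and 7.36% in shorter introns. First introns had 29.2% and other introns of a coding transcript 23.2% (exact test, adjusted p = 0.217).

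**Figure D4:**
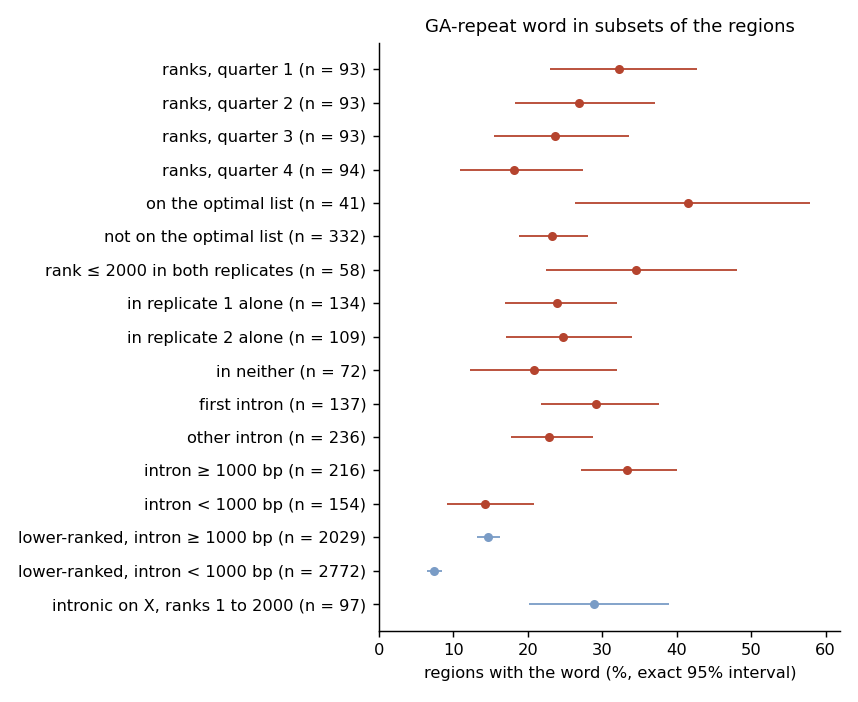
Share of summits with GAGAGA (x axis, %, with exact 95% intervals) in subsets of the 373 intronic regions (red) and in other intronic regions (blue), with the number of regions in each. The share is 33.3% in introns of 1000 bp or more and 14.3% in shorter ones, and goes from 32.3% to 18.1% over the 4 groups by rank.

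The word was mostly short. The 94 regions were chosen for a copy within 100 bp of the summit, so the window limits its distance, which is given as a description. The word's nearest copy was centred a median of 41 bp from the summit, within 50 bp in 60 of the 94. The longest uninterrupted GA run around it had a median of 7 bp and reached 22 bp, and 8 regions had a run of 12 bp or more. Without those 8 the excess over the flanks was 9.73 points (exact test, adjusted p = 0.00873). On the strand of the host gene, GAGAGA read in the sense direction in 35 regions, in the antisense direction in 50 and in both in 7 (exact binomial test of 35 against 50, two-sided, p = 0.128). Regions with hosts on both strands were left out. Among the weaker introns 202 were sense and 265 antisense, a sense share of 43.3% (exact binomial test, p = 0.00407) beside 41.2% of the strong ones.

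The remaining words did not pass against the flanks. TGATNNAT, the Hox and Pbx word, was at 68 summits (18.2%, 14.4 to 22.5), against 13.7% and 14.5% in the flanks (exact test, adjusted p = 0.395 and 0.485), 15.02% of weaker introns (adjusted p = 0.418) and 17.01% of all candidates. Its share was 25.8% in the 93 strongest regions, and 19 regions had both it and GAGAGA. The Meis class word TGACAG was at 9.65%, with 6.43% and 5.90% in the flanks (exact test, adjusted p = 0.395 for both) and 7.40% of all candidates. TGATAA, of the GATA type, was at 14.5% against 16.1% and 14.5% (18.9% of all candidates) and can share bases with TGATNNAT. TAATTA, the homeodomain core, was at 9.12% against 7.77% and 6.97% (9.22% of all candidates). The word of AP-1, TGACTCA, was at 1.07% of the summits and 2.1% of all candidates. Of the E-box words, which read alike on both strands, CACGTG was at 3.75% of the summits (3.51% of all candidates) and CAGCTG at 4.56% (4.30%). The TCF word CTTTGA was at 13.4% (15.8%), and the forkhead word TGTTTAC at 2.14% (2.53%). The Sp and KLF word GGGCGG was at 4.56% (3.08%), and AGGTCA, of nuclear receptors, at 8.31% (4.96%). Besides GAGAGA, no word is thus set apart from its flanks, 118 of the 373 windows held none of the 12, and a match shows letters and not binding.

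**Figure D5:**
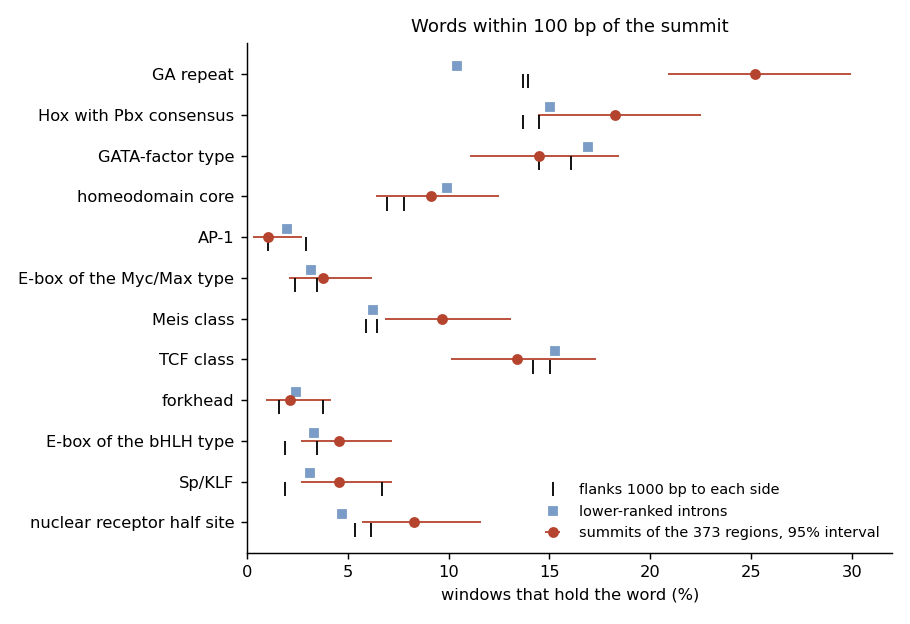
Share of windows that hold each of the 12 words (x axis, %), named by the factor class they are known for, at the 373 summits (red, exact 95% intervals), in the flanks 1000 bp to each side (black marks) and at 4819 lower-ranked intronic summits (blue). The GA repeat, at 25.2%, is the word that passed the test against both flanks. Its interval lies wholly above both flanks, as does that of the Meis class word TGACAG (6.85% to 13.1%), which did not pass.

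Between classes, 2 more words were called, both near the threshold. AGGTCA was at 8.31% of the strong and 4.71% of the weaker introns (exact test, adjusted p = 0.049), and lost its call with either replicate list alone (2.85 points without replicate 2 and 0.729 points without replicate 1, adjusted p = 0.199 and 0.898). GGGCGG was less frequent than in promoter-proximal regions, 4.56% against 10.02% (exact test, adjusted p = 0.049), and lost its call too, at -3.92 points without replicate 2 and -1.37 points without replicate 1 (adjusted p = 0.199 and 0.896).

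A search of all six-base words set GAGAGA beside a second purine word. Of 2078 words tested, 3 (0.144%) were more frequent at the summits than in both flanks and 6 (0.289%) less frequent (exact McNemar test, adjusted p under 0.05 against both). The 3 were AGGAGG, at 43 summits (11.5% against 4.02% and 3.22%, exact test, larger adjusted p = 0.0105), GAGAGA (adjusted p = 0.0134 and 0.0171 over all words) and its shifted form AGAGAG (22.8% against 12.3% in each flank). AGGAGG was at 4.73% of the weaker intronic summits. All 3 are made of purines on 1 strand. The 6 that were less frequent hold A and T alone: AATAAA (19.8% against 36.5% and 37.5%), AAATAA (25.2% against 40.5% and 40.2%), AAAAAT (49.9% against 66.8% and 65.1%), AAAATT (44.8%), ATAAAA (27.1%) and TTAAAA (29.5%). The calls depended on the replicate list: without replicate 2 there were 0 and 0 (34 and 16 words at an unadjusted p under 0.05 in both flanks), and without replicate 1 there were 2 and 12.

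The base composition moved with these words. The median GC content was 38.8% at the summits and 36.3% and 35.3% in the flanks, with the summit higher in 233 and 231 of the 373 (exact sign test, two-sided, p = 7.1e-08 and 4.34e-07). With flanks free of exons the median excess was 6.09 points, and without replicate 2 it was 0.995 points and not called (exact test, p = 0.0861). Exon-free flanks were compared for the regions that had them, and not for all 373. They were set against summit windows that could hold exon sequence. The lower quartile of the distance from summit to splice site was 66 bp. Weaker intronic summits had a median of 34.3%, distal intergenic strong summits 38.8% and promoter-proximal ones 40.8%. The part of base composition in the results on words was not tested.

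Noncoding genes, which the location rule ignored, were found near 56 of the 373 summits (15.01%) within 200 bp, beside 10.1% of the weaker candidates. The class annotated as other ncRNA was near 37 summits (9.92%, 7.08 to 13.4) and 4.23% of the weaker ones (Fisher's exact test, adjusted p = 5.74e-05 over 7 classes). With candidates past rank 2000 and up to rank 5000 in place of the weaker ones the difference fell from 5.69 to 3.93 points and was not called (exact test, adjusted p = 0.224). It was 3.38 points without replicate 1 (exact test, adjusted p = 0.028) and 3.63 points with summits in no exon of any gene type (adjusted p = 0.00273). These genes lay near regions in let-526, mig-10, zag-1, unc-83 and nrx-1, among others, and 20 of the 373 summits lay within an exon of a noncoding transcript.

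Transfer RNA genes were near 6 summits (1.61%, 0.593 to 3.47) and 0.394% of the weaker ones (exact test, adjusted p = 0.0254). The call was lost without replicate 1 (0.0271 points, exact test, adjusted p = 1.0) and without replicate 2 (0.679 points, adjusted p = 0.158). The strongest of the 6 regions, in spe-15 (rank 318), twk-48 (rank 379) and F53F8.7 (rank 485), had their summits within or 2 bp from the tRNA gene. Of the small RNA classes, snoRNA genes were near 4 summits (1.07% against 0.311%, exact test, adjusted p = 0.0779), in pxn-1, pdl-1, frm-7 and C08D8.1. Genes annotated as snRNA were near 2 summits, in F58G1.7 and dhc-4 (exact test, adjusted p = 0.0779), and 1 summit, in kup-1, lay 191 bp from the gene of the miRNA cel-mir-87. The piRNA genes (3.75% against 4.96%, exact test, adjusted p = 0.407) and pseudogenes (0 against 0.477%, adjusted p = 0.407) were not called either. Some of these classes were called under other settings. At ranks 1 to 1000 the differences were 1.91 points for snoRNA, 1.05 for snRNA and -4.40 for piRNA genes (exact test, adjusted p = 0.00962, 0.021 and 0.00757). The snoRNA difference was 1.22 points without replicate 1 (exact test, adjusted p = 0.028), and that of snRNA 0.724 points without replicate 2 (adjusted p = 0.019) and -0.0861 points without replicate 1 (adjusted p = 1.0). A count of 0 among 373 has an exact upper limit of 0.984%.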

How the data were processed

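Both replicates' ce11 narrowPeak lists and the list called on both together were used; per the deposited text files, the latter came from both replicates' alignments. The authors deposited a signal value per region and a column treated as a score, since values below 0 occur. Aligner, peak caller, IDR threshold and depth are not given in these sources, so intervals (exact Clopper-Pearson, 95%) cover the counting of regions only. Every candidate list held 30000 regions, 310 bp wide in the pooled list, 330 bp in replicate 1 and 300 bp in replicate 2.

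Summits were located in Ensembl release 115 gene models of WBcel235, and sequence was read from the RefSeq copy of that assembly. "In no exon" was read as no exon of a protein-coding gene. A region in a shorter and a longer intron was given the shorter length. Intron numbers are the lowest over the coding transcripts of the host, so a first intron can start within the gene. Replicate ranks are those of the strongest region that overlaps by at least 1 bp. Words were searched on both strands in 201-bp windows and tested with exact McNemar tests, shares between classes with Fisher's exact test, and GC content and strand with exact binomial tests, all two-sided, with Benjamini-Hochberg adjustment within a family. The test of all six-base words covered words in at least 10 windows. It was also run on simulated windows drawn with the same base composition for summits and flanks. That simulation does not address the difference in GC content between them. Alternatives covered the rank range, each replicate list alone, the promoter window, the word window, the flanks, overlapping regions, the weaker candidates used, the length of a long intron and the distance to noncoding genes.

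The regions, words and gene lists were chosen with earlier results of these data known. Genes named are the hosts of the 15 strongest regions, those with 3 or more regions, up to 4 hosts a list by rank, those on each side of the rank limit, and a few near noncoding genes, chosen after their values were seen. Analyses used Python 3.11.15, NumPy 2.4.6 and SciPy 1.17.1.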

Additional observations from a re-analysis of the deposited data

How the results depend on the processing

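No paired analysis was possible because both libraries belong to 1 group. No called value changed sign in the settings run. The excess of GAGAGA over the flanks lost its call at ranks 1 to 1000 (13.3 points, exact McNemar test, adjusted p = 0.071), with 180 regions, 164 hosts and 24 listed hosts left; replicate lists alone gave 8.70 to 10.2 points, 368 to 384 regions, 337 to 339 hosts and 40 to 47 listed hosts. Against introns past rank 2000 and up to 5000, GAGAGA (7.39 points), first introns (5.57), other ncRNA (3.93) and tRNA (0.41) lost their calls. First introns also lost theirs without the 311 strongest ranks (5.26 points) and in introns of 1000 bp or more (4.13), and ranged from 4.66 to 7.70 points over the replicate lists alone. Transfer RNA genes lost theirs at ranks 1 to 1000 (1.27 points), within 100 bp (0.74) and 500 bp (1.07), and with summits in no exon of any gene type (0.594); the replicate lists gave 0.0271 to 0.679 points. Long introns, 11.9 to 12.6 points in the replicate lists, passed the test in each setting run, at 5.36 points (500 bp or more) to 26.8 (ranks 1 to 1000). Between classes, AGGTCA lost its call in 8 settings (0.729 to 4.14 points) and GGGCGG in 7 (-6.13 to -1.37 points). Calls were gained for snoRNA, snRNA and piRNA genes at ranks 1 to 1000, and for snRNA genes with summits in no exon of any gene type (0.567 points). GC content gave 0.995 to 3.48 points in the replicate lists.

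Six-base words called higher and lower were 3 and 3 at ranks 1 to 1000, 0 and 1 without the 311 strongest ranks (43 and 32 at an unadjusted p under 0.05), 0 and 0 with a promoter window of 2000 bp upstream and 500 bp downstream (38 and 32 unadjusted), 13 and 9 with flanks at 500 bp, 3 and 16 with exon-free flanks, and 1 and 3 without regions with a GA run of 12 bp or more; the replicate lists gave 0 to 2 higher and 0 to 12 lower. The exon rule over all gene types, the GA-run and the long-intron settings were chosen after seeing the data. With exon-free flanks, regions whose flank touched an exon were left out for that flank, and exon sequence in the summit windows was kept. Why calls were lost was not tested. Depth is unknown, and 6 tRNA and 4 snoRNA neighbours are too few for firm shares.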
